A study of Mus musculus with 8 samples.

Results

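The contactins, the L1 family and the neural cell adhesion molecules are immunoglobulin-domain proteins of the axon surface, and 10 of their genes were followed in this RNA sequencing series. The genes were taken by name: the contactin genes Cntn1, Cntn2, Cntn3 and Cntn4, the L1 family genes L1cam, Nrcam, Nfasc and Chl1, and Ncam1 and Ncam2. The rule names the genes and uses no measured value, but the set was drawn up with earlier results of these data known. All 10 were matched by symbol among the 55416 gene identifiers of the deposited table. The cells were MB21, a mouse medulloblastoma line with a mutant ptch genotype, grown unattached in DMEM/F12 with B27. Medulloblastoma is a cerebellar tumour, and Ptch1 encodes the receptor that restrains Hedgehog signalling. The DS38 group received 10 uM of DS-1-38, a compound derived from benzarone, and the DMSO group received the vehicle, each for 5 days and with 4 libraries. The ptch mutation was shared by both groups, all libraries came from this 1 line, and whether the 4 libraries within a group stem from separate cultures is not in the labels. A p-value here therefore speaks only of the scatter among these libraries, and that scatter may be technical.

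Contactins are held in the membrane by a lipid anchor and signal through partners such as the Caspr proteins and receptor phosphatases. L1 family proteins span the membrane and bind ankyrins, which tie them to the spectrin skeleton of the axon. Neural cell adhesion molecules bind one another across cells, and their adhesion is tuned by polysialic acid. In the developing cerebellum, Cntn2 appears on granule neurons as they leave the cell cycle and extend axons, while L1cam, Nrcam and Ncam1 take part in axon growth, bundling and migration.

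Library totals ran from 18878556 to 25582159 counts in DMSO and from 17142397 to 28476019 in DS38. Pairs of libraries within a group differed beyond counting noise, with a chi-square per degree of freedom of 4.33 to 21.0, so none was counted as a library deposited again. In DS38, replicates 1 and 2 (4.81) and replicates 3 and 4 (4.33) lay closer to each other than across these pairs (12.02 to 21.0). The single identifier ENSMUSG00000119584 took 0.351% and 0.556% of the counts in DS38 replicates 1 and 2 and 1.91% and 1.47% in 3 and 4. In DMSO it took 1.604% to 2.34%. Without it, the range across these pairs was 3.33 to 7.48. That range took in the values within replicates 1 and 2 (4.04) and within 3 and 4 (3.64). Values from each pair of DS38 libraries alone, a comparison added after seeing the data, are given for the members below. The line carried granule lineage transcripts, with the 5 progenitor markers summing to 1100 to 1158 CPM in DMSO and 1304 to 1357 CPM in DS38. Levels are given as CPM, the usual scaling of counts to the library total, here with the library's TMM factor except in sums of markers and for genes too low to test. Defining genes of mature granule neurons (Gabra6, 1 count in 8 libraries), committed oligodendrocytes (Sox10, 4 counts), mature astrocytes (Aqp4, 5 counts), microglia (Cx3cr1, listed with no count) and endothelium (Cldn5, listed with no count) were at or near 0. Of the other endothelial markers, Cdh5 had 199 counts and Pecam1 51 over the 8 libraries, and Cdh5 did not pass (edgeR adjusted p = 0.816). In these bulk samples, fewer cells of a type and less RNA per cell cannot be told apart.

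Transcripts of 6 of the 10 genes were abundant enough to test, and each of them differed between the groups. Cntn2, L1cam, Nrcam, Nfasc and Chl1 rose with DS-1-38 and Ncam1 fell. Of the 15133 genes tested by edgeR's quasi-likelihood test, 39.5% were called at a Benjamini-Hochberg adjusted p under 0.05, 18.8% raised and 20.7% lowered, so a call in itself was common. Among all genes tested 36.1% had groups that did not overlap, against 5 of the 6 tested members. These counts are a description only, and Chl1 reached the test through its DS38 libraries alone. Cntn1, Cntn3, Cntn4 and Ncam2 stayed under the filter on low counts, which asked for about 0.464 CPM in 4 libraries.

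**Figure D1:**
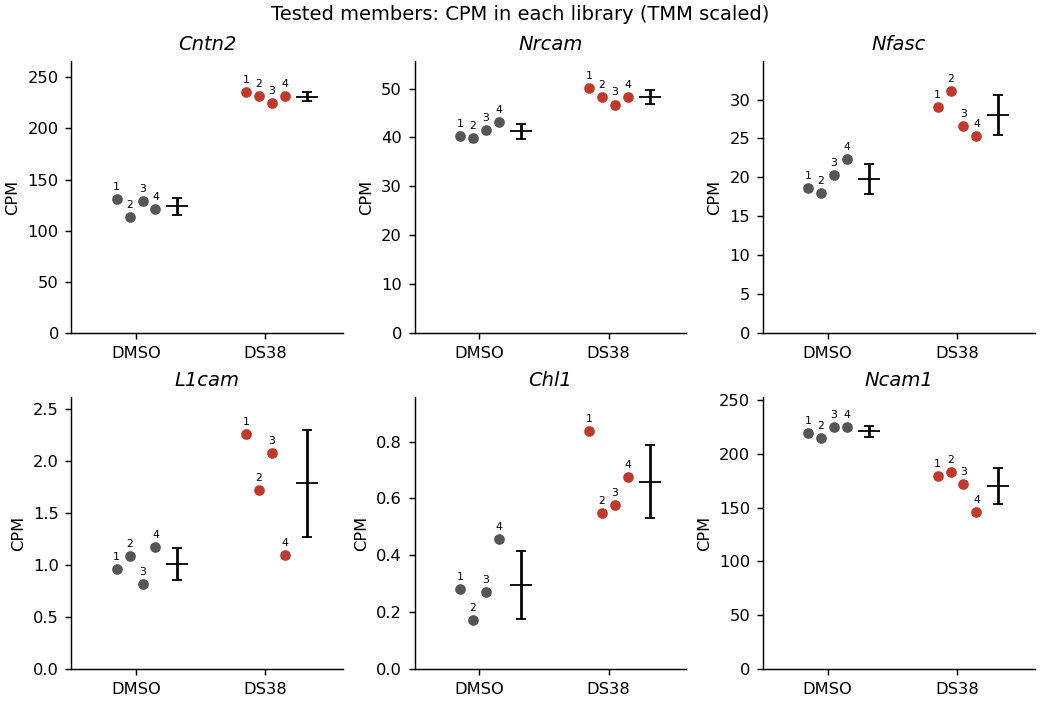
CPM (vertical axis, from 0) of the 6 tested members in the 4 DMSO and 4 DS38 libraries. Each point is a library with its replicate number, and the bar beside each group is the mean with the SD. The groups separate for Cntn2, Nrcam, Nfasc, Chl1 and Ncam1, whereas DS38 replicate 4 of L1cam, at 1.09 CPM, lies among the DMSO libraries.

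Cntn2, Nfasc and Nrcam rose together, and the windows around their starts are shown so that they can be compared. They come from RefSeq, build GRCm38.p6, and reach from 250 bases before a start to 50 bases after it. Capitals mark each match to the E-box CANNTG, the core read by basic helix-loop-helix factors such as Atoh1 and Neurod1. The Cntn2 window is chr1:132542891-132543190 on the minus strand, the Nfasc window, from the upstream one of its 2 starts, is chr1:132707277-132707576 on the minus strand, and the Nrcam window is chr12:44328635-44328934 on the plus strand.
Cntn2: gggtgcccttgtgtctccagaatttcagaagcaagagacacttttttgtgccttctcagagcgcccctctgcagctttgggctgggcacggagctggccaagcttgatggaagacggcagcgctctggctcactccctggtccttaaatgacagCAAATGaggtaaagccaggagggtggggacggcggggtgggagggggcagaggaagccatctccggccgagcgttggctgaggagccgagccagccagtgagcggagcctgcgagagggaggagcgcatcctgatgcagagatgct
Nfasc: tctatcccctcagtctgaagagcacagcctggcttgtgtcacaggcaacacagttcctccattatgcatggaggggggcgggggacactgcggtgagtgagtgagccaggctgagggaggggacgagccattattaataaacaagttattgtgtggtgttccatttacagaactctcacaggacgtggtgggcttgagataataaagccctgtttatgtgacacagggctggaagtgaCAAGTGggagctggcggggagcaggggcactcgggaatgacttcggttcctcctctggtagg
Nrcam: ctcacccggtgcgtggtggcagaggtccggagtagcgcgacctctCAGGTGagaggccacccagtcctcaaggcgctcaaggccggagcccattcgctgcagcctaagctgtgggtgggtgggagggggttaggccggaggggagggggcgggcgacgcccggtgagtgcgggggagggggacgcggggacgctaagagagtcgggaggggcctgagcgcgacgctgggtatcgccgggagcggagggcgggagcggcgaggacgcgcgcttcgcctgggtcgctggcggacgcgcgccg
Each window held 1 E-box, spelled CAAATG in Cntn2, CAAGTG in Nfasc and CAGGTG in Nrcam, and 72.3% of 32851 such windows of all genes held at least 1. The E-box forms CAGCTG (16.3% of all windows) and CAGATG (17.2%) were also searched, and none of the windows shown held either. Among the windows not shown, CAGCTG occurred at the other Nfasc start and in both Cntn4 windows. CAGATG occurred in both windows of L1cam, which also rose. The GC box GGGCGG was found in the windows of Nfasc and Nrcam and not in that of Cntn2, against 35.7% of all windows. The window of the other Nfasc start held no GC box, and both L1cam windows held at least 1. RefSeq windows were at hand for 9 of the 10 members, Ncam1 aside, 14 windows in all. Of these 14, 10 held an E-box and 5 a GC box. The window of Chl1, which also rose, held neither. Among genes too low to test, the windows of Cntn3 and Cntn4 held E-boxes and that of Ncam2 did not. In none of the 14 was there a match on either strand to GACCACCCA, the sequence preferred by Gli factors (0.253% of all windows), or to TGATGCAA, a composite site of Atf4 (0.895%). A match or its absence describes only these letters in these windows.

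Cntn2, which encodes the axonal glycoprotein also called TAG-1, changed by the largest amount in CPM of the members that rose. Its DMSO libraries held 131, 114, 129 and 121 CPM and its DS38 libraries 236, 232, 225 and 232 CPM. Every DS38 library lay far above every DMSO library, and the DS38 libraries lay close together. The log2 fold change was 0.90 ± 0.045 (SE), or 1.87-fold (edgeR adjusted p = 2.81e-11). Over 23 alternative settings it ran from 0.85 to 0.96, with 0.93 from DS38 replicates 1 and 2 alone and 0.88 from 3 and 4 alone. Of all genes tested, 97.7% had a log2 fold change at or below that of Cntn2.

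The other contactins were close to silence. Cntn1, the partner of Caspr at the paranode, had 3, 1, 0 and 0 counts in the DMSO libraries and 3, 0, 1 and 3 in DS38. Cntn3, also called BIG-1, had 5, 4, 4 and 6 counts in DMSO and 10, 5, 3 and 7 in DS38. Cntn4, also called BIG-2, had 7, 10, 11 and 9 counts in DMSO and 12, 10, 3 and 3 in DS38. For these 3 genes the groups overlapped, and counts of this size leave wide counting error. With the filter removed, edgeR adjusted p-values were 0.654 for Cntn1, 0.708 for Cntn3 and 0.475 for Cntn4. The remaining members of the family, Cntn5 and Cntn6, had 12 and 3 counts over the 8 libraries.

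Nfasc encodes neurofascin, which gathers sodium channels at the axon initial segment and the node of Ranvier. The gene stood at 18.6, 18.0, 20.3 and 22.3 CPM in DMSO and at 29.0, 31.1, 26.6 and 25.3 CPM in DS38. The groups did not overlap, and the highest DMSO library lay closest to the lowest DS38 library. The log2 fold change was 0.51 ± 0.077 (SE), or 1.43-fold, with an edgeR adjusted p of 4.95e-05. Nfasc was higher in DS38 replicates 1 and 2 than in 3 and 4, and the log2 fold change was 0.62 from the first pair alone and 0.39 from the other, both past the threshold (adjusted p = 3.85e-06 and 0.00263). Nrcam, whose product is a relative of L1 that also serves at nodes and in axon guidance, stood at 40.3, 39.9, 41.6 and 43.2 CPM in DMSO and at 50.05, 48.2, 46.7 and 48.2 CPM in DS38. The shift was small and without overlap, at 0.23 ± 0.046 on the log2 scale (SE), or 1.17-fold (edgeR adjusted p = 0.000668). The pairs of DS38 libraries alone gave 0.26 and 0.20 for Nrcam, and both passed (adjusted p = 0.00159 and 0.0244).

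L1cam, the founding gene of its family, was expressed at about 1 CPM. Its DMSO libraries held 0.962, 1.09, 0.814 and 1.17 CPM, and its DS38 libraries 2.26, 1.72, 2.07 and 1.09 CPM. Replicates 1, 2 and 3 of DS38 lay above all DMSO libraries and replicate 4 among them. The log2 fold change was 0.82 ± 0.241 (SE), or 1.77-fold (edgeR adjusted p = 0.0111). With both libraries numbered 1 removed L1cam no longer passed (adjusted p = 0.0690), nor did it once counts were thinned to the smallest total (adjusted p = 0.0610). It passed with DS38 replicates 1 and 2 alone (log2 fold change 0.97, adjusted p = 0.00503) and did not with 3 and 4 alone (0.62, adjusted p = 0.147). In GENCODE M21 Arhgap4, annotated on the same strand with an exon that overlaps one of L1cam, held 100 counts over the 8 libraries against 248 for L1cam, so reads at the shared stretch are uncertain.

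Chl1, the close homolog of L1, was the least expressed member that could be tested. It had 7, 4, 5 and 9 counts in DMSO and 20, 16, 10 and 13 in DS38, or 0.296 ± 0.119 and 0.659 ± 0.130 CPM (SD, n = 4 each). Each DMSO library was under the filter's level, so the gene entered the test through DS38 alone. The log2 fold change was 1.16 ± 0.351 (SE), with an edgeR adjusted p of 0.0134. Chl1 no longer passed when DMSO replicate 2 was removed (adjusted p = 0.0544) or when both libraries numbered 1 were (adjusted p = 0.0741). With DS38 replicates 1 and 2 alone it passed (1.22, adjusted p = 0.0312), and with 3 and 4 alone it did not (1.09, adjusted p = 0.0941).

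Ncam1, which encodes the main neural cell adhesion molecule, went the other way. It stood at 219, 215, 225 and 225 CPM in DMSO and at 179, 183, 172 and 146 CPM in DS38. The DMSO libraries were tight and all DS38 libraries lay below them, with DS38 replicate 4 the lowest. The log2 fold change was -0.38 ± 0.057 (SE), a 1.30-fold fall, and edgeR's adjusted p was 9.44e-05. From DS38 replicates 1 and 2 alone the log2 fold change of Ncam1 was -0.28 and from 3 and 4 alone -0.48, and both passed (adjusted p = 0.000194 and 3.73e-06). Gene-level counts cannot tell the transmembrane from the lipid-anchored forms of the protein, which arise by splicing. An exon of the antisense gene Gm11149 overlaps Ncam1 in GENCODE M21, with 87 counts over the 8 libraries against 34399 for Ncam1. Its relative Ncam2, best known from olfactory axons, had 7, 6, 7 and 2 counts in DMSO and 2, 3, 6 and 9 in DS38, and without the filter its edgeR adjusted p was 0.862.

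**Figure D2:**
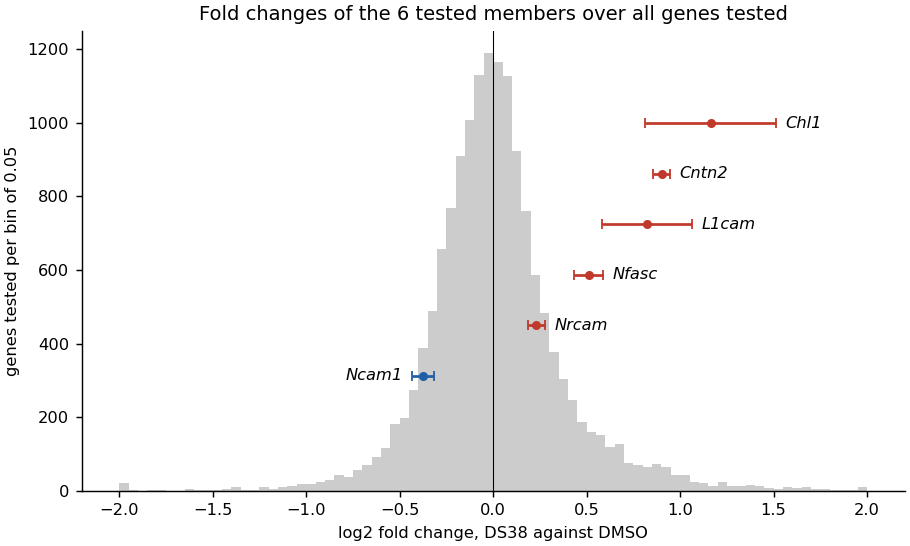
Log2 fold change of DS38 against DMSO (horizontal axis) for the 6 tested members, each a point with its SE, over a histogram of the 15133 genes tested (vertical axis, genes per bin; genes beyond the axis are gathered in the end bins). Chl1 (1.16), Cntn2 (0.90) and L1cam (0.82) lie in the upper tail, Nrcam (0.23) lies nearer the middle, and Ncam1 (-0.38) lies on the lower side.

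Ratios between 2 members within a library do not depend on how libraries are scaled. They were compared between the groups for the 10 pairs among Cntn2, L1cam, Nrcam, Nfasc and Ncam1 by an exact permutation test over the 8 libraries (two-sided, smallest possible p = 0.0286). The pairs were chosen after the counts were seen. The counts of Cntn2 were 0.529 to 0.599 times those of Ncam1 in DMSO and 1.27 to 1.58 times in DS38. The log2 ratio was -0.84 ± 0.083 in DMSO and 0.45 ± 0.146 in DS38 (SD, n = 4 each), a difference of 1.29 (exact p = 0.0286, adjusted p = 0.0408). All 4 DS38 libraries lay above all 4 DMSO libraries in this ratio. That separation and its p were fixed in advance, because the groups did not overlap in Cntn2, which rose, or in Ncam1, which fell. They are therefore no added support. Cntn2 also rose against Nrcam (log2 difference 0.68) and against Nfasc (0.40), and Nrcam fell against Nfasc (-0.27), each with an exact p of 0.0286 and an adjusted p of 0.0408. Nrcam, Nfasc and L1cam rose against Ncam1 by 0.61, 0.88 and 1.17 on the log2 scale, with the same exact p. For Nrcam and Nfasc against Ncam1 that p was likewise fixed in advance. The adjustment ran over all 10 pairs, those fixed in advance among them, which makes the adjusted p smaller. The adjusted p of the other pairs is therefore a description only. For L1cam against Cntn2, Nrcam or Nfasc the groups overlapped, and the exact p-values were 0.686, 0.114 and 0.257.

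Levels of different genes can be set side by side only per length, for which TPM was used, counts divided by gene length and then scaled to the same sum in each library. In DMSO the order was led by Ncam1 at 89.1 ± 2.79 TPM and Cntn2 at 46.4 ± 3.24 TPM (SD, n = 4). Nrcam followed at 10.8 ± 0.481, Nfasc at 4.89 ± 0.518 and L1cam at 0.479 ± 0.0734 TPM, with no overlap between these neighbours in the order. In DS38 the first and second places changed over, with Cntn2 at 93.6 ± 4.83 TPM and Ncam1 at 74.1 ± 8.99 TPM. Nrcam stood at 13.6 ± 0.836, Nfasc at 7.47 ± 0.864 and L1cam at 0.919 ± 0.283 TPM, again without overlap between neighbours. Below L1cam, the means of Cntn4, Cntn3, Chl1, Ncam2 and Cntn1 ran from 0.182 down to 0.0151 TPM in DMSO and neighbouring genes overlapped. In DS38 these 5 genes ran from 0.203 for Chl1 down to 0.0339 for Cntn1, also with overlapping neighbours.

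**Figure D3:**
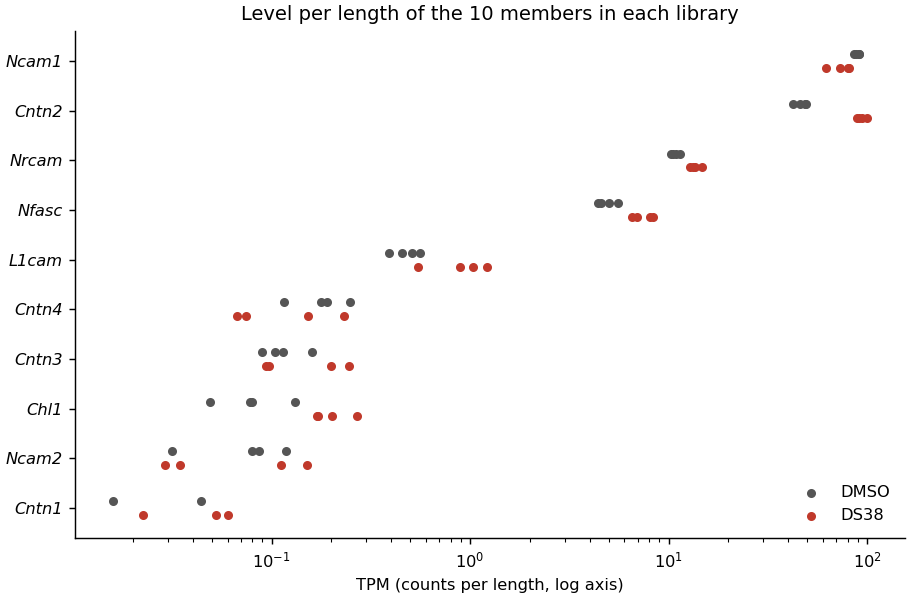
TPM (horizontal log axis) of the 10 members in each library, DMSO in grey and DS38 in red, ordered by the DMSO mean. Libraries without a count of a gene cannot be drawn on this axis, which concerns Cntn1. Ncam1 leads in DMSO (85.6 to 91.3 TPM) and Cntn2 leads in DS38 (88.6 to 99.9 TPM), and the lowest 5 genes overlap with their neighbours.

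Summed over the 10 genes, the level per length was 152 ± 6.10 TPM in DMSO and 190 ± 14.5 TPM in DS38 (SD, n = 4 each). Ncam1 made up 58.6% ± 0.939 of this sum in DMSO and 38.8% ± 2.24 in DS38. Cntn2 made up 30.5% ± 1.29 and 49.3% ± 2.12. The share of Nrcam stood at 7.09% ± 0.220 and 7.17% ± 0.300. Cntn2 and Ncam1 together thus made up most of these transcripts in both groups, with the larger share from Ncam1 in DMSO and from Cntn2 in DS38.

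Cntn2 and Nfasc are direct neighbours among the protein-coding genes of chromosome 1, and both rose. In the order of RefSeq's GRCm38.p6 annotation, Lrrn2, which encodes a leucine-rich repeat protein of neurons, comes next on the side of Nfasc, and it rose too. Lrrn2 stood at 51.7 ± 2.74 CPM in DMSO and 80.05 ± 3.45 CPM in DS38 (SD, n = 4 each), and its log2 fold change was 0.63 (edgeR adjusted p = 9.49e-09). Beyond it, Mdm4 (log2 difference 0.01, adjusted p = 0.938) and Pik3c2b (0.18, 0.0599) did not pass. On the side of Cntn2, Tmem81 (-0.27, 0.0984) and Rbbp5 (-0.05, 0.322) did not pass. The 3 consecutive genes Cntn2, Nfasc and Lrrn2 were therefore the run that rose in this stretch, ahead of Dstyk (0.18, 0.00572), which stood apart from them. The neighbours were examined after the values of the members were seen.

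On chromosome 6, Cntn3, Chl1, Cntn6 and Cntn4 stand in a row. All 4 were near silence, with 44, 84, 3 and 65 counts over the 8 libraries, and Il5ra after them had 1 count. Flanking genes were expressed, with Pdzrn3 at 7.04 ± 0.707 CPM and Trnt1 at 134 ± 4.83 CPM in DMSO. Before the row, Gxylt2 (log2 fold change -0.35, edgeR adjusted p = 0.00249) and Pdzrn3 (-0.41, 0.00940) fell and Ppp4r2 rose (0.12, 0.0252). After it, Trnt1 (-0.07, 0.145) and Crbn (-0.03, 0.523) did not pass. Chl1 was the gene of this run that entered the test.

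**Figure D4:**
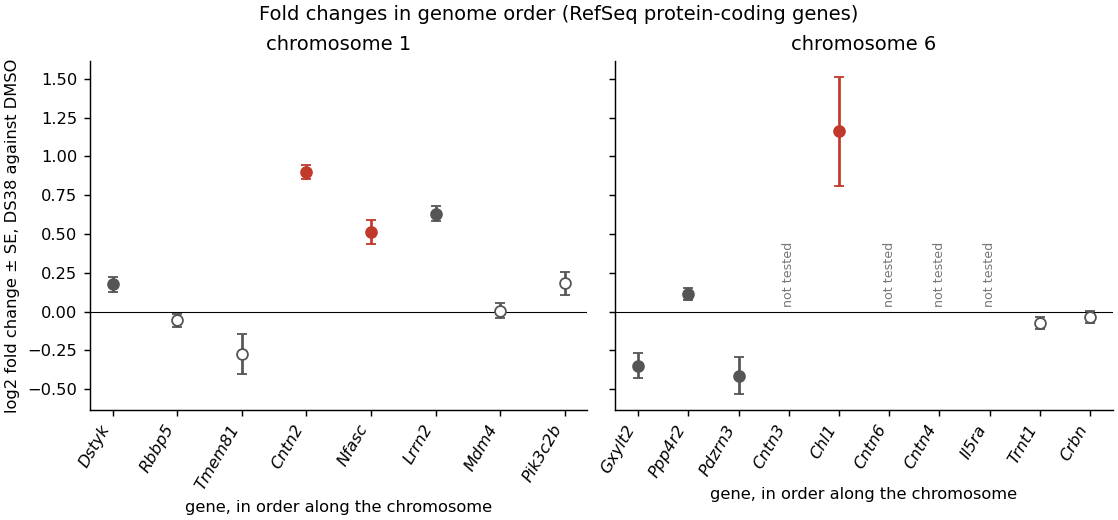
Log2 fold change with SE (vertical axis) of consecutive protein-coding genes on chromosomes 1 and 6 (horizontal axis, order only, not to scale). Members are red and other genes grey, filled symbols passed the test and open ones did not. Cntn2 (0.90), Nfasc (0.51) and Lrrn2 (0.63) form a run of rises, and the contactin genes beside Chl1 could not be tested.

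Transcripts for proteins that work with contactins and L1 proteins changed in both directions. Of 37 partner genes 36 were matched, 26 were tested, 9 rose, 5 fell and 12 did not pass (median log2 fold change 0.05, against -0.01 over all genes tested). As a description only, 34.6% were raised and 19.2% lowered, against 18.8% and 20.7% of all genes tested. The Caspr genes encode the cis partners of contactins. Cntnap1 rose (log2 fold change 0.18, edgeR adjusted p = 0.00196), with 90.2 ± 2.92 CPM in DMSO and 102 ± 2.96 CPM in DS38 (SD, n = 4 each). With DS38 replicates 3 and 4 alone Cntnap1 no longer passed (0.14, adjusted p = 0.0536). Cntnap4 stood at 2.22 ± 0.384 and 2.51 ± 0.127 CPM (adjusted p = 0.391). Cntnap2, the partner of Cntn2 beside the node, had 47 counts over the 8 libraries and was not tested. Cntnap3, Cntnap5a and Cntnap5b had 7, 14 and 5 counts, and Cntnap5c was listed without any.

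Among the genes of the membrane skeleton, the 2 tested ankyrin genes moved apart. Ank3, for ankyrin-G of the axon initial segment, rose from 203 ± 21.9 to 285 ± 23.1 CPM (SD, n = 4 each), which is 0.49 on the log2 scale (edgeR adjusted p = 0.000967). Ank2, for ankyrin-B, fell from 141 ± 14.2 to 115 ± 9.60 CPM, by 0.29 on the log2 scale (adjusted p = 0.0135). These directions held in all 23 alternative settings, library totals alone among them, and Ank2 no longer passed with DS38 replicates 1 and 2 alone (-0.19, adjusted p = 0.0665). The spectrin gene Sptbn1 (log2 fold change 0.49) and the actin linker gene Ezr (0.24) rose, while Dlg1 (0.01) and Epb41l3 (0.06) did not pass. Ank3 and the other genes named here outside the naming rule were chosen after their values were seen.

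Matrix ligands split as well. Ncan, which encodes the proteoglycan neurocan that binds L1 and neural cell adhesion molecules, rose (log2 fold change 0.30), as did Tnc, for tenascin-C, from a low level (1.81 ± 0.474 to 4.34 ± 1.08 CPM, SD, n = 4 each). Bcan, for the related proteoglycan brevican, fell (log2 fold change -0.28). Of the receptors and kinases that act with these adhesion proteins, Fgfr1 (-0.31) and the Src family kinase gene Fyn (-0.30) fell, while Prnp, whose protein binds neural cell adhesion molecules, rose (0.31). Gfra1 of the same group rose by 0.93 from a low level (1.28 ± 0.358 to 2.46 ± 0.474 CPM, SD, n = 4 each), and Nrp1 (-0.11) did not pass. The ligands of the amyloid precursor family, App, Aplp1 and Aplp2, did not pass, with log2 differences of -0.04, -0.03 and 0.08. The protease genes Adam10 (-0.07), Adam17 (0.06) and Bace1 (-0.09), whose products cut membrane proteins at the cell surface or in endosomes, did not pass.

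Of 5 genes for the sugars carried by these proteins, 4 were tested. B3gat1, which acts in the synthesis of the HNK-1 epitope found on several members, rose 1.65-fold (edgeR adjusted p = 1.34e-07). It stood at 19.4 ± 1.24 CPM in DMSO and 31.96 ± 2.46 CPM in DS38 (SD, n = 4 each). B3gat2 (log2 fold change 0.13, adjusted p = 0.789) and Chst10 (-0.04, 0.651), listed for the same synthesis, did not pass. St8sia2, which adds polysialic acid to Ncam1, stood at 3.18 ± 0.373 and 3.75 ± 0.652 CPM and did not pass (adjusted p = 0.196). Its counterpart St8sia4 had 1 count over the 8 libraries.

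Of 25 other immunoglobulin adhesion genes, 24 were tested, 11 rose, 3 fell and 10 did not pass (median log2 fold change 0.14). As a description only, 45.8% were raised and 12.5% lowered, against 18.8% and 20.7% of all genes tested. The rises with the smallest p belonged to Alcam, an activated leukocyte adhesion gene used by growing axons (log2 fold change 0.70), Mdga1 (0.37), Mcam (1.43) and Cadm3 (0.36). The falls were those of Mdga2 (-0.73), Dscam (-0.85) and Nptn (-0.12). Mdga1 and Mdga2, which both encode lipid-anchored proteins of the synapse, thus moved apart, from 209 ± 9.08 to 270.1 ± 10.3 CPM and from 16.9 ± 1.02 to 10.1 ± 0.816 CPM (SD, n = 4 each). Their directions held in all 23 alternative settings. In the IgLON family, Ntm (0.46), Opcml (0.57) and Lsamp (0.44) rose and Negr1 (-0.04) and Iglon5 (0.03) did not pass, and the nectin genes did not pass either. The call of Nptn was lost in 10 of 23 alternative settings, that of Lsamp in 15 and that of Opcml in 4 of 22. Without DMSO replicate 4, 7 genes of this list rose, and 6 did with either pair of DS38 libraries alone.

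**Figure D5:**
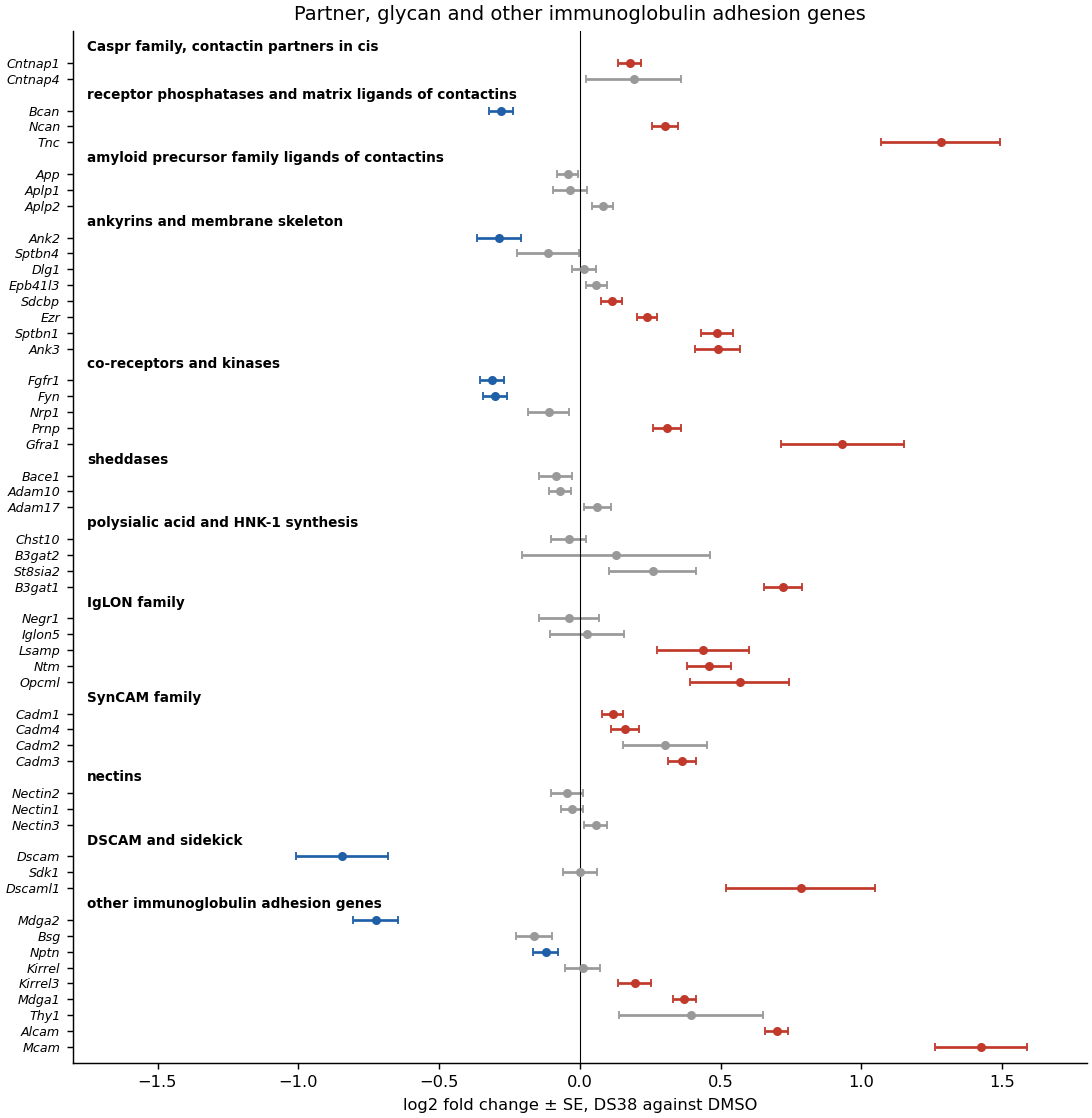
Log2 fold change with SE (horizontal axis) of tested partner, glycan and other immunoglobulin adhesion genes, by family. Genes that rose are red, genes that fell are blue and genes that did not pass are grey. Mcam (1.43) and Tnc (1.28) rose the most and Dscam (-0.85) fell the most, and in several families members lie on both sides of 0.

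Levels of cell type markers differed between the groups in both directions, and many did not pass. The granule neuron markers summed to 156 to 162 CPM in DMSO and 193 to 200 CPM in DS38. Cbln1 (log2 fold change 0.50) and Neurod2 (0.67) were up, Rbfox3 (-0.10) and Cbln3 (0.0003) did not pass and Gabra6 was near 0. Of the 5 progenitor markers, Atoh1 (0.60), Barhl1 (0.71) and Pax6 (0.11) rose, Zic1 (-0.16) fell and Neurod1 (0.11) did not pass. The oligodendrocyte lineage markers summed to 82.9 to 89.0 CPM in DMSO and 63.0 to 68.8 CPM in DS38, mostly from Pdgfra, which fell (-0.52). Olig1 (-0.03), Olig2 (-0.23) and Mbp (0.64) did not pass. The fibroblast markers summed to 2.44 to 3.16 CPM and 4.097 to 5.09 CPM, with Col1a2, Dcn and Pdgfrb at 10 counts or fewer over the 8 libraries. Col1a1 rose among them (log2 fold change 1.81), from 0.232 ± 0.130 to 0.797 ± 0.258 CPM (SD, n = 4 each). Each DMSO library of Col1a1 was under the filter's level, so this gene entered the test through DS38 alone. Col3a1 (0.41, edgeR adjusted p = 0.0732) and Lum (0.70, 0.0719) did not pass. The astrocyte markers summed to 117 to 121 CPM and 114 to 116 CPM, with Gfap up (0.75) and Slc1a3 down (-0.13), and 2 of the 5, Aqp4 and Aldh1l1, near 0. The microglial markers summed to at most 0.176 CPM in any library and the endothelial ones to at most 1.81 CPM. The part of these markers in the changes of the members was not tested. Long genes tended to rise, with 30.8% of the longest 1514 genes tested raised and 13.9% lowered, and Nrcam, Nfasc and Chl1 are among them. With an offset for gene length, Nrcam had a log2 fold change of 0.16 and Nfasc of 0.43, and both still passed (edgeR adjusted p = 0.00678 and 7.31e-06).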

How the data were processed

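The authors deposited whole-number read counts per gene for 8 libraries, with each gene's length, and the counts were not normalized. The submitters' processing notes list, with no roles, GRCm39 and GRCh38.p13 as builds; as tools they list edgeR, R 4.1.0, STAR 2.7.9a, Subread 2.0.3 and featureCounts. Strand setting: not given in the sources used here. A Kapa mRNA Hyper Prep kit was used, per the labels' protocols. Symbols were matched for 52083 identifiers, and 114 of 115 list entries were found (Ptprg was not analysed here). List counts and marker sums include 3 genes that are not reported singly here. Genes were tested with edgeR 4.0.16 (robust quasi-likelihood, TMM, default filterByExpr, R 4.3.3), with Benjamini-Hochberg adjustment over every gene kept. SE is the log2 fold change over the square root of F. Alternatives used DESeq2 1.42.0 and limma 3.58.1 among others. The test was checked on simulated data. All members were named, with at most 4 genes per direction of smallest p from each other list, and Cntn and Cntnap genes. Members and lists were chosen with earlier results of these data known. Counts limit precision: 3 counts are 0.175 CPM in the shallowest library, counting error only. The main test did not pair libraries by replicate number. Deviations from the group means correlated at 0.33, -0.07, 0.07 and -0.08 between libraries of the same number, 1 to 4. DMSO replicate 1 correlated with the other DS38 libraries at -0.247 to -0.00236, so it was most like DS38 replicate 1. DMSO replicates 2 and 4 each correlated more with a DS38 library of another number (up to 0.187 and 0.0971).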

Additional observations from a re-analysis of the deposited data

Results flagged for a closer look

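In the DS38 group, Dscam, which encodes a homophilic adhesion molecule of neurons, had 1 library apart from the others. DS38 replicate 2 stood at 3.78 CPM and the other libraries at 2.22 to 2.39 CPM, all below the DMSO range of 4.56 to 5.35 CPM. In all, 92 tested genes among the members, lists, markers, neighbours and genes like Cntn2 were examined, and 9 of their 184 groups passed the 95% limit for a gap within 4 samples. Chance alone passes about 1 group in 20. No tested member had such a library. In DS38, the others were the lowest library of Adam10 (replicate 2, 164 CPM), of Bace1 (replicate 4, 42.8 CPM) and of Thy1 (replicate 4, 0.884 CPM), and the highest of Sdcbp (replicate 4, 202 CPM). In DMSO they were the lowest library of Bsg (replicate 3, 385 CPM) and of Kdm1a (replicate 2, 218 CPM), and the highest of Neurod1 (replicate 2, 93.9 CPM) and of Pdzrn3 (replicate 3, 8.09 CPM).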

How the results depend on the processing

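The directions and calls of Cntn2, Nrcam, Nfasc and Ncam1 were kept in all 23 alternative settings, and the log2 fold changes ran from 0.16 to 0.29 for Nrcam, 0.39 to 0.62 for Nfasc and -0.48 to -0.28 for Ncam1. L1cam (0.62 to 0.99) and Chl1 (0.97 to 1.43) kept their direction in the 22 settings that tested them and each lost its call in 3. The number of members raised, 5, went to 3 with a filter of 50 counts in 4 libraries, which leaves L1cam and Chl1 untested, and to 3 without both libraries numbered 1. With DS38 replicates 3 and 4 alone, chosen after seeing the data, 3 members rose, 1780 genes rose in all, and 8 other immunoglobulin adhesion genes changed, 6 of them raised. With DS38 replicates 1 and 2 alone, also chosen after seeing the data, 5 members rose, 3 partner genes fell, 2 glycan genes changed, both raised, and 9 other immunoglobulin adhesion genes changed, 6 of them raised. Both settings test 2 DS38 libraries against 4. Leaving out 1 library at a time gave 4 to 5 members raised, 1 lowered, and 7 to 12 other immunoglobulin adhesion genes raised. With the replicate block, 6 members changed, 5 of them raised, and 5594 genes changed in all against 5980. Scaling by library totals alone moved the raised share of called genes from 47.5% to 64.2%, and the members' calls held. The ratio of mean TPM for Cntn2 was 2.01, and 1.95 by FPKM. Leaving out ENSMUSG00000119584, chosen after seeing the data, gave 6 members changed. Counts of about 10 per library limit Chl1 and the 4 untested members.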

Other observations

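Outside the lists, the genes whose log2 CPM followed Cntn2 most closely over the 8 libraries, among 10927 genes of at least 4 CPM, were Cep89 (Pearson's r = 0.998), Hey1 (0.996) and Kdm1a (0.996). The 8 points share 2 groups, so these values mostly restate that each gene was higher in DS38. Cep89, a gene for a protein of the centriole, went from 24.9 ± 1.73 to 44.1 ± 0.693 CPM (SD, n = 4 each). Hey1, a repressor gene that answers to Notch, went from 43.6 ± 4.26 to 99.5 ± 4.95 CPM, and Kdm1a, a histone demethylase gene, from 224 ± 3.88 to 278 ± 2.98 CPM.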
